A study of Mus musculus with 6 samples.

Results

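The variants described here are double-stranded DNA oligos that carry a Gli binding site with 1 to 3 mismatches at positions 1 to 4 and the most frequent base at positions 5 to 16. They were chosen from the 16-base table by taking the most frequent base at each of its 16 positions as the reference and keeping every sequence that differed from it only at positions 1 to 4 and at no more than 3 of them. This gave 174 of the 1266 sequences in the table, out of 2094 sequence lines in the whole series. They comprise 12 variants with 1 mismatch, 54 with 2 and 108 with 3, which is every such combination. The 81 sequences changed at all of positions 1 to 4 lie just outside the rule.

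Pools of such oligos were incubated in vitro with recombinant mouse Gli (Gli1 in the titles) and run on a gel, where DNA held by the protein migrates apart from free DNA (an electrophoretic mobility shift assay). The bound and the unbound fraction were each cut out, amplified by PCR and sequenced. The groups are bound, with 3 samples, and unbound, with 3 samples, from 3 binding reactions that were each run once. The table used here holds 1 bound and 1 unbound library and names neither its reaction nor a methylation state, and the labels of the R1-R5 samples list both unmethylated libraries and libraries treated with M.SssI, a bacterial enzyme that methylates CpG. Which of these the counts came from is therefore not known, and the values below describe this table only.

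Gli proteins are the zinc finger transcription factors at the end of the Hedgehog signalling pathway, and in mouse they act on target genes such as Ptch1 and Hhip. They recognise a C-rich site, and the first 9 bases of the reference match the known Gli consensus. The varied bases are the 5′ end of that consensus as listed. The reference and its 12 single-base variants are shown because every comparison below is built on them. Lower case marks bases shared with the reference and a capital marks a mismatch. Each name gives the reference base, its position counted from 1 at the 5′ end of the oligo, and the variant's base.
Reference: gaccacccaagatgaa
G1A: Aaccacccaagatgaa
G1C: Caccacccaagatgaa
G1T: Taccacccaagatgaa
A2C: gCccacccaagatgaa
A2G: gGccacccaagatgaa
A2T: gTccacccaagatgaa
C3A: gaAcacccaagatgaa
C3G: gaGcacccaagatgaa
C3T: gaTcacccaagatgaa
C4A: gacAacccaagatgaa
C4G: gacGacccaagatgaa
C4T: gacTacccaagatgaa

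The measure is the ratio of bound to unbound reads per sequence, with 0.5 added to each count, and a change is the natural log (ln) ratio of a variant minus that of the reference. The table held 2101584 bound and 291875 unbound reads, of which the 174 variants took 136790 bound reads, 6.51%, and 49724 unbound reads, 17.0%. All 174 variants passed the minimum of 10 reads in each fraction, with 235 to 2786 bound and 44 to 825 unbound reads each. The counting standard error (SE) of a change was 0.08 to 0.17. With 1 library per fraction there is no replicate check and no p-value. SEs and intervals cover counting error only, since several PCR reads can stem from 1 molecule and no molecular identifiers mark them. The reference had 8450 bound and 236 unbound reads, a ratio of 35.7 and an exact Clopper-Pearson 95% interval of 31.5 to 40.9. It belongs to all 5 windows of the table and the 3 variants at position 4 also belong to the window at positions 4 to 7, so their counts may add reads of several libraries.

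Changes at positions 1 to 4 lowered the bound to unbound ratio in nearly every variant. None of the 174 lay above the reference. Of them 165 were lower by 2-fold or more, against 52.4% of the 1263 other sequences of the table that passed the read minimum, these variants included. At more than 2 counting SE, 172 were lower, against 62.9% of the table. The exceptions, within counting error of the reference, were A2C and G1C+A2G. No variant was higher by 2-fold or more, as were 1.66% of the table. The variants were lower by 10-fold or more in 121 cases, against 37.1% of the table. Their median change was -2.86, 17.4-fold lower than the reference, beside -1.06 over the 1263 sequences. The table also holds windows at positions 10 to 16, so its share is a level to read against and not a test.

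The median ratio was lower with each further mismatch. The 12 variants with 1 mismatch were a median 2.77-fold lower than the reference, with ratios of 4.13 to 31.3. With 2 mismatches the median was 10.7-fold lower, and ratios ran from 1.13 to 26.9. Variants with 3 mismatches were a median 22.3-fold lower, with ratios of 0.758 to 8.84. The ranges overlapped, so the number of mismatches alone did not place a variant. Of the variants, 8 of 12, 49 of 54 and 108 of 108 with 1, 2 and 3 mismatches were lower by 2-fold or more. The 81 sequences with 4 mismatches had ratios of 0.688 to 1.99 and a median of 1.04. At or below their highest ratio lay 69 of the 108 variants with 3 mismatches, 15 of the 54 with 2 and none of the 12 with 1.

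Position 4 had the largest median loss when changed alone, 5.84-fold, and held the weakest single-base variants, C4G and C4A, although C4T, 3.29-fold lower than the reference, lay within counting error of C3G and A2T, 3.65-fold and 3.63-fold lower. C4G had 1930 bound and 467 unbound reads, a ratio of 4.13 that was 8.65-fold below the reference, a change of -2.16 ± 0.08 (counting SE). C4A had 1660 bound and 271 unbound reads, a ratio of 6.12 and a change of -1.77 ± 0.09. C4T had 2306 bound and 212 unbound reads, a ratio of 10.9 and a change of -1.19 ± 0.10. The replacements thus differed from each other at this position by more than their counting errors, with T retaining most binding and G least.

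At position 3, C3G and C3T lay close together and C3A bound better. C3G had 1817 bound and 185 unbound reads and was 3.65-fold below the reference (-1.29 ± 0.10). C3T had 1414 bound and 124 unbound reads and was 3.14-fold below it (-1.15 ± 0.11). C3A had 1226 bound and 73 unbound reads and was 2.14-fold below it (-0.76 ± 0.14).

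Position 2 separated T from the other replacements. A2T had 1384 bound and 140 unbound reads, a ratio of 9.85 and a change of -1.29 ± 0.11. A2G had 2689 bound and 102 unbound reads, a ratio of 26.2 and a change of -0.31 ± 0.12. A2C had 1581 bound and 50 unbound reads, a ratio of 31.3 and a change of -0.13 ± 0.16. A2C was the only single-base variant within 2 counting SE of the reference, so a small difference was not detectable at this depth.

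The replacements at position 1 were alike in size. G1A had 797 bound and 54 unbound reads and a change of -0.89 ± 0.16. G1T had 1029 bound and 55 unbound reads and a change of -0.66 ± 0.15. G1C had 996 bound and 50 unbound reads and a change of -0.59 ± 0.16. All lay below the reference by more than 2 counting SE, while their differences from each other were within counting error.

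Among variants with 2 mismatches, those changed at positions 1 and 2 bound best and those that lost position 4 together with position 1 or 3 had the lowest medians. The 5 with the highest and the 5 with the lowest ratios are shown because they hold this contrast. All of the highest are changed at positions 1 and 2, with C or G at position 2.
G1C+A2G: CGccacccaagatgaa
G1T+A2G: TGccacccaagatgaa
G1C+A2C: CCccacccaagatgaa
G1A+A2G: AGccacccaagatgaa
G1T+A2C: TCccacccaagatgaa
All of the lowest are changed at position 4, with a second mismatch at position 2 or 3.
C3A+C4A: gaAAacccaagatgaa
C3G+C4T: gaGTacccaagatgaa
A2T+C4A: gTcAacccaagatgaa
C3G+C4A: gaGAacccaagatgaa
A2T+C4G: gTcGacccaagatgaa

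G1C+A2G had 1737 bound and 64 unbound reads, a ratio of 26.9 and a change of -0.28 ± 0.14, within 2 counting SE of the reference. G1T+A2G had 1871 bound and 79 unbound reads and a ratio of 23.5. G1C+A2C, with 876 bound and 44 unbound reads, had a ratio of 19.7. These variants keep C at positions 3 and 4, and their ratios lay at or above the 14.6 to 19.7 of variants changed at position 1 alone. G1A+A2G had a ratio of 18.7 and G1T+A2C one of 18.3. At the other end, C3A+C4A had 495 bound and 437 unbound reads, a ratio of 1.13 that was 31.5-fold below the reference. C3G+C4T had 460 bound and 382 unbound reads and a ratio of 1.20. The other variants of that list, A2T+C4A, C3G+C4A and A2T+C4G, had ratios of 1.34, 1.39 and 1.54. All 5 thus lay within the range of sequences with no reference base left at positions 1 to 4.

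Each pair of positions was represented by 9 variants. Changes at positions 1 and 2 were a median 1.96-fold lower than the reference, with ratios of 5.09 to 26.9. Positions 1 and 3 gave a median 5.87-fold, positions 2 and 3 gave 6.92-fold, and positions 2 and 4 gave 10.5-fold. All 9 variants changed at positions 3 and 4 only, which lost both C bases, were at least 15.3-fold lower, though they differed among themselves beyond counting error. Positions 3 and 4 gave a median of 18.8-fold, with ratios from 1.13 for C3A+C4A to 2.33 for C3T+C4A. Positions 1 and 4 gave 20.7-fold, with ratios of 1.55 to 4.78. Median losses of at least 10-fold thus occurred in each pair that included position 4 and in no other pair. Single variants did not follow the pair medians in every case. A2T+C3G was 20.7-fold lower while keeping position 4, and A2G+C4T, with 1936 bound and 233 unbound reads, was 4.31-fold lower while losing it.

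With 3 mismatches a single reference base remained, and which base remained ordered the medians. The 27 variants that kept C at position 4 had a median ratio of 2.51 and a highest of 8.84. Those that kept C at position 3 had a median of 1.86 and a highest of 7.59. Those that kept G at position 1 had a median of 1.51 and a highest of 3.38. Those that kept A at position 2 had a median of 1.16 and ran from 0.758 to 1.65. The last set lay wholly within the range of sequences with 4 mismatches, so A at position 2 without the other reference bases was accompanied by no ratio above that range.

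The highest and lowest of these are shown to compare what they kept. The highest hold C or G at position 2 and keep C at position 3 or 4.
G1C+A2G+C3A: CGAcacccaagatgaa
G1A+A2G+C3A: AGAcacccaagatgaa
G1A+A2C+C4T: ACcTacccaagatgaa
The lowest hold A or T at each changed position.
G1T+C3A+C4A: TaAAacccaagatgaa
A2T+C3T+C4A: gTTAacccaagatgaa
A2T+C3T+C4T: gTTTacccaagatgaa

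G1C+A2G+C3A had 1144 bound and 129 unbound reads and was 4.04-fold below the reference. G1A+A2G+C3A had 855 bound and 102 unbound reads and was 4.28-fold below it. G1A+A2C+C4T had 679 bound and 89 unbound reads and was 4.71-fold below it, although it lacks C at position 4. Each of these bound more than C4G, the weakest variant with 1 mismatch, whose ratio was 8.65-fold below the reference. G1T+C3A+C4A had 323 bound and 426 unbound reads, the lowest ratio of all 174, 0.758, or 47.1-fold below the reference. A2T+C3T+C4A and A2T+C3T+C4T were 45.0-fold and 44.4-fold below it. Medians in this class also differed with base composition. The median change was -3.43 in the 8 variants with no G or C at positions 1 to 4, -3.37 in 24 with 1, -2.95 in 42 with 2, -2.83 in 28 with 3 and -2.90 in 6 with 4. The 8 with no G or C all keep A at position 2. All 27 variants that keep A there, which include these 8 and others that hold G or C, also had a median change of -3.43. The part of base composition in these results was not tested.

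To see whether the order of bases depended on the rest of the site, bases at a position were compared with the other 3 varied positions held equal. There were 37 such contexts at each position, those with at most 2 mismatches at the other positions. They share sequences and are not replicates. At position 4, C exceeded A, G and T in 37 of 37 contexts each, by medians of 6.58-fold, 5.15-fold and 4.86-fold. At position 3, C exceeded T in 37 of 37 contexts and A and G in 36 each, by medians of 2.54-fold, 2.33-fold and 3.39-fold. Among the replacements there, A exceeded T in 17 contexts and T exceeded A in 20, so the lead of C3A over C3T on the reference was not general. T exceeded G in 29 contexts and G exceeded T in 8. A exceeded G in 26 and G exceeded A in 11. G at position 1 exceeded C and T in 36 contexts each and A in 33, by medians of 1.76-fold to 1.81-fold. The preference for the reference base thus held in nearly all contexts at positions 1, 3 and 4.

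Position 2 had no such preference for its reference base over G. A exceeded G there in 17 contexts and G exceeded A in 20, with a median difference of -0.06. A exceeded C in 29 contexts, by a median of 1.19-fold, and C exceeded A in 8. T was disfavoured instead. A and G each exceeded T in 36 contexts, by medians of 2.08-fold and 2.43-fold, and C exceeded T in 32, by 1.90-fold.

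The order of the replacements at position 4 changed with position 3. With C at position 3, T exceeded G in 16 of 16 contexts, by a median of 0.52 on the ln scale (G minus T -0.52), and G and A were split 8 to 8. With another base at position 3, G exceeded T in 18 of 21 contexts, with a median G minus T of 0.30, and exceeded A in 19 of 21, with a median of 0.42. G after C at these positions makes a CpG, so this split also separates sequences with and without that dinucleotide, and its part was not tested. In all, 29 of the 174 variants hold a CpG within positions 1 to 4. With 3 mismatches, the 20 with a CpG had a median change of -2.92, against -3.13 in the 88 without. With 2 mismatches, the 8 with a CpG had -2.73, against -2.23 in the 46 without. Most of the 8 hold C4G, so CpG cannot be told apart there from the loss of C at position 4. Those that keep this C, G1C+A2G and A2C+C3G, changed by -0.28 and -2.43.

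The cost of a mismatch also depended on what else had changed. On the reference, a mismatch lowered the ratio by a median 2.77-fold over 12 steps. Added to a variant with 1 mismatch, the median was 3.14-fold over 108 steps, and added to a variant with 2 it was 1.96-fold over 324. At position 4 these medians were 5.84-fold, 7.39-fold and 4.96-fold. At position 2 they were 1.36-fold, 1.69-fold and 1.22-fold, and there 24 of 81 steps onto variants with 2 mismatches raised the ratio.

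Position 1 mattered less beside G at position 2. On A2G, the further change G1C gave 0.03 ± 0.16, against -0.59 ± 0.16 on the reference. G1T gave -0.11 ± 0.15 on A2G, against -0.66 ± 0.15 on the reference, and G1A gave -0.34 ± 0.16, against -0.89 ± 0.16. On A2G variants that had also lost C at position 3 or 4, each of these replacements lowered the ratio. A2G+C4T had a ratio of 8.29, and with G1A, G1C or G1T added it was 2.53, 3.56 or 3.70. A2G+C3A had 14.6, and with the same additions 8.35, 8.84 or 7.48. The position 1 replacements cost more beside G at position 3 than on the reference, though not only there. On C3G, G1A gave -1.42 ± 0.11, G1C -1.52 ± 0.11 and G1T -1.30 ± 0.11. In the same order they gave -1.17 ± 0.11, -1.37 ± 0.11 and -1.31 ± 0.10 on C4A. On C4T they gave -1.27 ± 0.11, -1.42 ± 0.11 and -0.82 ± 0.11. On C4G the values were -0.87 ± 0.10, -0.97 ± 0.09 and -0.92 ± 0.09. A2C, which alone gave -0.13 ± 0.16, gave -1.14 ± 0.10 on C3G and between -0.17 ± 0.15 and 0.01 ± 0.13 on C3A and C3T. It gave -0.59 ± 0.10 on C4A, -0.52 ± 0.11 on C4T and -0.03 ± 0.08 on C4G.

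The observed change of each variant with 2 or 3 mismatches was then set against the sum of its single-base changes on the ln scale. Over the 54 variants with 2 mismatches, the median deviation from the sum was -0.07, and over the 108 with 3 it was 0.04. These medians near 0 covered wide spreads, from -1.01 to 0.62 with 2 mismatches and from -1.08 to 1.66 with 3. Of the 162 variants, 39 lay more than 2 counting SE below the sum, 30 above and 93 within. Deviations showed no steady trend with the sum. Where the sum lay above -1.5, 9 of 15 variants lay above it, with a median deviation of 0.12. Between -2.5 and -1.5, 35 of 54 lay below it (median -0.30), and between -3.5 and -2.5, 39 of 61 did (median -0.13). Where the sum was -3.5 or lower, 29 of 32 lay above it, with a median of 0.51. The deviation contains the sum it is grouped by, so positive deviations at the lowest sums are in part built in. The lowest sums give ratios under 0.688, the lowest seen in this window, while ratios down to 0.291 were seen at positions 4 to 7. Whether a lower limit of the ratio played a part was not tested.

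The extremes of this comparison are shown among variants with at least 50 reads in each fraction. Each of the 4 farthest above the sum holds C4G and keeps neither C at position 3 nor C at position 4.
A2T+C3G+C4G: gTGGacccaagatgaa
A2G+C3G+C4G: gGGGacccaagatgaa
A2T+C3A+C4G: gTAGacccaagatgaa
G1A+C3G+C4G: AaGGacccaagatgaa
The 4 farthest below all hold A2C, but other variants without it lay as far below within their errors.
A2C+C3A+C4T: gCATacccaagatgaa
A2C+C3G: gCGcacccaagatgaa
G1C+A2C+C4T: CCcTacccaagatgaa
A2C+C3G+C4T: gCGTacccaagatgaa

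A2T+C3G+C4G had 1100 bound and 672 unbound reads and a ratio of 1.64, where the sum gives 0.312, a deviation of 1.66 ± 0.19. A2G+C3G+C4G had 2786 bound and 825 unbound reads and a ratio of 3.38, where the sum gives 0.832. A2T+C3A+C4G and G1A+C3G+C4G deviated by 1.35 ± 0.22 and 1.27 ± 0.23. In the other direction, A2C+C3A+C4T had 514 bound and 340 unbound reads and a ratio of 1.51, where the sum gives 4.44, a deviation of -1.08 ± 0.25. A2C+C3G had 1343 bound and 428 unbound reads and a ratio of 3.14, where the sum gives 8.59. G1C+A2C+C4T and A2C+C3G+C4T each deviated by -0.93, with SEs of 0.27 and 0.23. C3A+C4A, which lacks A2C, also deviated by -0.93 ± 0.17, and G1C+C3G by -0.92, so the place of the last variants in this list is not separated from the next. Over all variants with 2 or 3 mismatches, 29 of 36 that hold C4G lay above the sum, while 32 of 36 that hold C4T and 24 of 36 that hold A2C lay below it. This was not particular to A2C, since 24 of 36 that hold G1C and 23 of 36 that hold C3A also lay below. The 36 variants of each replacement share the value of its single-base variant, so the error of that value moves all of them together.

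An additive model with 1 term per replacement accounted for 85.7% of the variance of the ln ratio over the reference and the 174 variants. Its residual SD of 0.35 was 4.32 times the counting error. Terms for pairs of bases were added for 1 pair of positions at a time, 9 terms each. The pair of positions 3 and 4 added 6.20 percentage points, positions 2 and 3 added 2.06, and each other pair added 0.78 or less. The fitted terms at position 4 were -1.49 for T, -1.56 for G and -1.76 for A, with regression SEs of 0.08. G was thus close to T over all contexts, whereas on the reference alone C4G changed by -2.16 and C4T by -1.19.

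The windows at positions 4 to 7 and 7 to 10 were set beside this one because they overlap the same consensus and share the reference. Over variants with 1 to 3 mismatches, 174 in each window, 165 at positions 1 to 4, 166 at positions 4 to 7 and 94 at positions 7 to 10 were lower by 2-fold or more. The medians were 17.4-fold, 28.5-fold and 2.60-fold lower than the reference. With 3 mismatches, the largest loss was 47.1-fold at positions 1 to 4, 123-fold at positions 4 to 7 and 23.6-fold at positions 7 to 10. Over 1 to 3 mismatches, positions 1 to 4 lay between the other windows in the median and in the largest loss. With 2 mismatches alone their median loss was the largest of these windows, 10.7-fold, against 9.26-fold at positions 4 to 7 and 1.69-fold at positions 7 to 10. The largest single loss with 2 mismatches was nevertheless at positions 4 to 7, 87.8-fold, against 31.5-fold at positions 1 to 4 and 14.0-fold at positions 7 to 10. Over 1 to 3 mismatches, the lowest ratios at positions 1 to 4, 4 to 7 and 7 to 10 were 0.758, 0.291 and 1.51. These are descriptions of 1 pair of libraries, and the differences between windows were not tested.

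Gli's consensus was also searched elsewhere in each variant. The 9 bases of the reference site were set against every other placement within the 16 bases on either strand. The best other placement had 3 mismatches in 4 variants, A2G+C3A and the variants that add a change at position 1 to it, 4 mismatches in 63 and 5 in 107. These 4 include G1C+A2G+C3A and G1A+A2G+C3A, which had the highest ratios of the variants changed at 3 positions, 8.84 and 8.35. Whether the other placement played a part in their ratios was not tested. The DNA beyond the 16 bases is not listed in the table and was not searched.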

How the data were processed

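The authors deposited raw read counts of each 16-base sequence for the bound and the unbound library, the ratio of bound to unbound counts, and a column without heading that equals minus the natural log of the deposited ratio to within 0.0005. The counts are whole numbers, and the deposited ratio equals bound over unbound counts to within 3.5e-08, so it was not scaled for depth. How reads were counted and filtered is not stated in the labels or headers. The tables of the R6 and R4-R6 reactions vary other positions and were not used.

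The ln ratio was computed per sequence with a pseudocount of 0.5, requiring 10 reads in each fraction. Counting SEs are square roots of summed reciprocal counts. Deviations from sums carry the SEs of all counts involved and were tested on simulated data. The additive model was ordinary least squares. Named sequences were the reference, the single-base variants, the 5 highest and 5 lowest ratios with 2 mismatches, the 3 highest and 3 lowest with 3, and the 4 largest deviations in each direction. A2T+C3G and A2G+C4T were chosen after their values were seen, as were the context comparisons. Members and lists were chosen with earlier results of these data known. Alternatives covered the pseudocount, read minimum, fold, deposited ratio, reference, weighting and members included. Computations used Python 3.11.15, numpy 2.4.6, pandas 2.3.3 and scipy 1.17.1.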

Additional observations from a re-analysis of the deposited data

How the results depend on the processing

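Of 193 values recomputed under alternative settings, none changed sign of a called change and 191 moved by less than their counting interval, or 1.5 times for counts and 1 percentage point for variance shares. Some settings could not move a value. A minimum of 1 read kept the same variants, and the strongest sequence was the reference itself. The deposited ratio repeated the setting with a pseudocount of 0. The share of unmoved values is therefore no measure of robustness. The values that moved both came from inverse-variance weighting, in which the smaller count of a variant mainly sets its weight. The inverse-variance weighted mean of the 12 single-base changes was -1.37, against a median of -1.02, and the weighted additive fit accounted for 79.2% of the variance, against 85.7%. In that mean the most weight fell on C4G and C4A, with 467 and 271 unbound reads and changes of -2.16 and -1.77. Why the share of the additive fit moved was not tested. Without variants that hold C4G, an alternative chosen after seeing the data, the median deviation from the sum was -0.19 with 2 mismatches and -0.11 with 3. Leaving out position 4, it was 0.07 and 0.06. The number of variants lower than the reference was 171 at 1.5-fold and 154 at 4-fold. The variants with the fewest unbound reads, 44 to 55, were strongly bound, with ratios of 14.5 to 31.3, and these counts mainly set their SEs. Not every strongly bound variant had so few, since A2G, with a ratio of 26.2, had 102. No paired analysis was possible because the table holds 1 bound and 1 unbound library.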
